A study of Equus caballus with 16 samples.

Results

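The genes described here are 100 horse genes whose level was lower with a hairpin against Scleraxis than with a control hairpin in each of 8 tenocyte lines. They were chosen by their measured ratios. For each line the ratio was log2(CPM + 1) of the Scleraxis-hairpin library minus that of the control library, where CPM is the count divided by the library's total and multiplied by 1000000. Of 21689 genes, 10880 were eligible, with a mean control level of at least 2 CPM and a place outside the 100 most abundant genes. The 100 eligible genes with the lowest maximum ratio over the 8 lines were taken as members. The ratios and every value built from them are therefore a description of how the members were picked, with no test.

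Scleraxis is a basic helix-loop-helix transcription factor of tendon progenitors and tenocytes, the matrix-producing cells of tendon. It binds short DNA elements called E-boxes together with a ubiquitous E protein partner. In tendon it is best known for its link to collagen and tenomodulin expression and to the formation of force-transmitting tendons in the embryo. A short hairpin RNA (shRNA) is cut into a small RNA that lowers the messenger RNA it matches, and may also act on other messengers that share part of its sequence.

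The 16 libraries came from cultured equine tenocytes of 4 adult lines (TB171012, TB180412, TB130911 and S, donor age 2 to 10 years) and 4 fetal lines, whose names (271d, 316d, 319d and 320d) give the day of gestation. All lines carried a stably introduced plasmid vector with a puromycin marker. In one library of each line the vector held a hairpin designed against human SCX (shSCX), and in the other a scrambled non-target hairpin (NT). Each group of stage and hairpin held 4 libraries. One shSCX sequence and 1 NT sequence were used, so an effect of the target and an effect of that particular sequence cannot be told apart. The deposited identifiers carry no gene symbols, and 0 of 21689 matched the gene table used here. The SCX level, the tenocyte markers and the functions of the members were therefore not analysed here, and members are given by Ensembl identifier. Passage was 5 for TB180412 and 7 or 8 for the other lines.

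Total estimated counts ran from 17628158 to 26157162 per library. At this depth the counting error was worked out for a member's log2 ratio of counts in 1 line, without the pseudocount. It had a median of 0.115, from 0.0146 for the best covered to 1.51 for the least covered value. The pseudocount of 1 CPM makes the error of the ratios used here smaller, most of all at low level. The error covers counting alone. In 21 members at least 1 library held under 20 counts, and the lowest value was 1 count. Whether the 2 libraries of a line came from more than 1 culture is not stated, and the spread given here is that between lines.

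Over the lines a member kept a median of 10.4% to 82.0% of its NT level, and the median of these over all members was 60.7%. The lowest share, 10.4%, was that of ENSECAG00000009723, a gene of low level with a lowest count of 2. The median ratio over the 100 members was -0.64 in TB171012, -0.57 in TB180412, -0.67 in TB130911 and -0.64 in S. Fetal line 271d had -0.81, 316d had -0.64, 319d had -0.56 and 320d had -0.68. The adult mean of these medians was -0.63 ± 0.04 and the fetal mean -0.67 ± 0.11 (SD, n = 4 lines each). Line 271d thus had the deepest median and 319d the shallowest. Over all eligible genes the median ratio was between -0.08 (TB180412) and 0.13 (316d), and its mean was -0.02 ± 0.05 for the adult lines and 0.10 ± 0.03 for the fetal lines (SD, n = 4 each). Taken relative to the eligible median of each line, the members' median was -0.61 ± 0.08 for adult lines and -0.77 ± 0.10 for fetal lines (SD, n = 4 each).

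The size of the change differed widely between members. A member's mean ratio over the 8 lines ran from -2.22 to -0.30, with a median of -0.66, and for 26 members it was -1 or lower, a 2-fold reduction on this scale. Only 2 members were at least 2-fold lower in all 8 lines, 11 were at least 1.5-fold lower in all 8, and 54 were at least 2-fold lower in at least 1 line. The distance between a member's highest and lowest ratio had a median of 0.74 and reached 3.60. In 23 members it was under 0.5, and in 6 it was over 2. For 4 of those 6 the lowest ratio was in TB130911. TB130911 also held the lowest ratio of 24 members, more than any other line, while the highest ratio lay most often in TB180412 (19 members) and S (18 members).

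The limit set by the rule was narrow. Member 100 had a maximum ratio of -0.2082 and the gene just outside had -0.2078. The members ranked 98 and 99 stood at -0.2117 and -0.2110, and the next gene outside at -0.2018. In all, 597 eligible genes (5.49%) had a ratio below 0 in 8 of 8 lines, and the members are the end of that list.

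**Figure D1:**
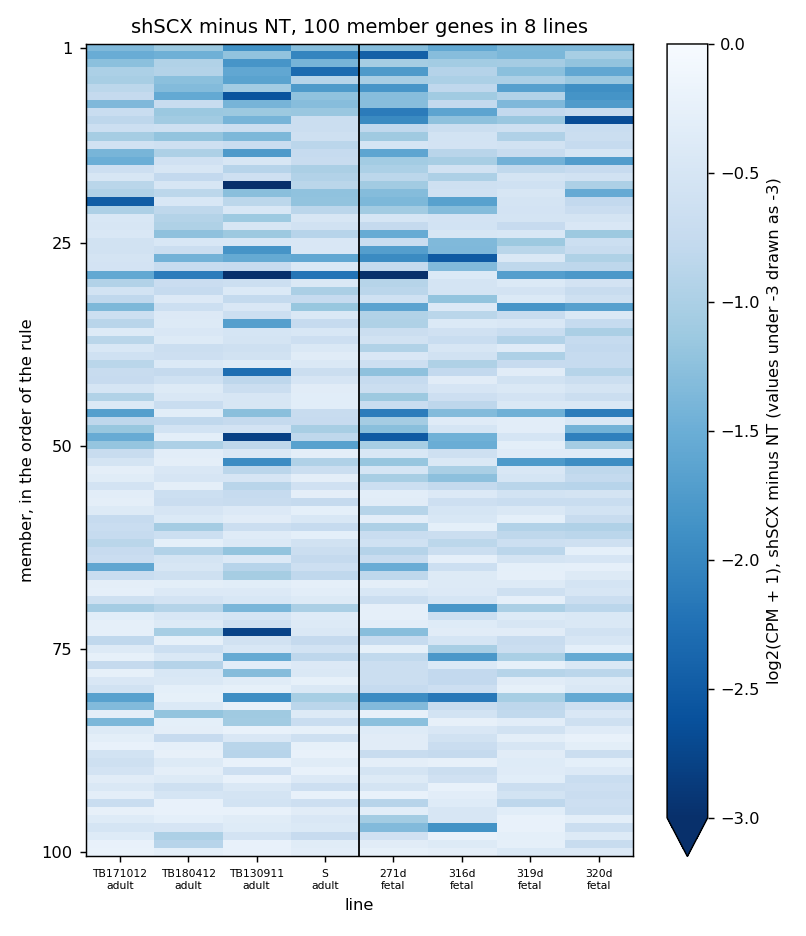
Ratios of the 100 members (rows, in the order of the rule, lowest maximum ratio at the top) in the 8 lines (columns, adult left of the vertical bar), coloured from 0 (pale) to -3 or lower (dark) on the log2(CPM + 1) scale. All cells are below 0 because the rule required it, and dark cells are scattered over members, with the lowest single ratio of -4.02 in TB130911.

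The first member by the rule was ENSECAG00000012645, a gene of low level. Its NT level was 3.26, 4.33, 5.01 and 3.505 CPM in TB171012, TB180412, TB130911 and S. With shSCX the same lines had 0.69, 1.42, 0.65 and 0.81 CPM. The fetal NT libraries 271d, 316d, 319d and 320d had 2.97, 3.05, 2.37 and 5.16 CPM, against 0.60, 0.36, 0.30 and 1.42 CPM with shSCX. The highest shSCX library thus lay below the lowest NT library of either stage. Between 11.9% (316d) and 32.7% (TB180412) of the NT level was left. Its ratio averaged -1.41 ± 0.22 (SD, n = 8 lines). The pseudocount of 1 CPM makes this smaller than the ratio of the CPM values, and the lowest library held 6 counts.

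ENSECAG00000037060, the second member, had NT levels of 14.9, 12.5, 14.9 and 7.66 CPM in the adult lines, in the same order, and 4.55, 3.87, 5.87 and 1.15 CPM with shSCX. In the fetal lines it had 11.0, 4.00, 9.47 and 21.5 CPM with NT and 1.21, 1.03, 3.02 and 9.98 CPM with shSCX. The adult groups did not overlap, whereas the fetal groups did, because NT in 316d was lower than shSCX in 320d. It kept between 11.0% (271d) and 46.4% (320d) of its NT level, with a mean ratio of -1.55 ± 0.46 (SD, n = 8 lines).

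ENSECAG00000018674 was the most abundant member, with a mean NT level of 799 CPM. Adult NT libraries held 272, 1282, 562 and 1492 CPM, and the shSCX libraries of the same lines 167, 579, 255 and 670 CPM. Fetal NT libraries held 355, 1221, 155 and 1052 CPM, and the shSCX libraries 80.2, 397, 89.6 and 644 CPM. The level differed far more between lines than between hairpins, so that NT and shSCX libraries overlapped at both stages. Within a line 22.6% (271d) to 61.3% (TB171012) of the NT level was left. It was the ninth member by the rule, with a mean ratio of -1.17 ± 0.49 (SD, n = 8 lines).

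The second most abundant member, ENSECAG00000015608, had a mean NT level of 402 CPM and a smaller change. Adult NT libraries had 192, 453, 593 and 246 CPM, and the shSCX libraries 118, 293, 286 and 141 CPM. Fetal NT libraries had 602, 499.7, 219 and 413 CPM, and the shSCX libraries 343, 383, 181 and 314 CPM. Between 48.2% (TB130911) and 83.0% (319d) of the level was left, and groups overlapped at both stages. The ratio averaged -0.79 in adult and -0.46 in fetal lines.

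The lowest mean ratio belonged to ENSECAG00000023039, at -2.22 ± 1.20 (SD, n = 8 lines). In the adult lines it went from 16.98, 44.0, 179.8 and 8.02 CPM with NT to 5.01, 9.35, 10.2 and 0.96 CPM with shSCX. In the fetal lines it went from 268, 110.1, 64.9 and 398 CPM to 17.1, 82.2, 19.3 and 114 CPM. The share left was 5.66% in TB130911 and 6.37% in 271d but 74.6% in 316d. That one line placed it only at rank 29. Groups overlapped at both stages.

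**Figure D2:**
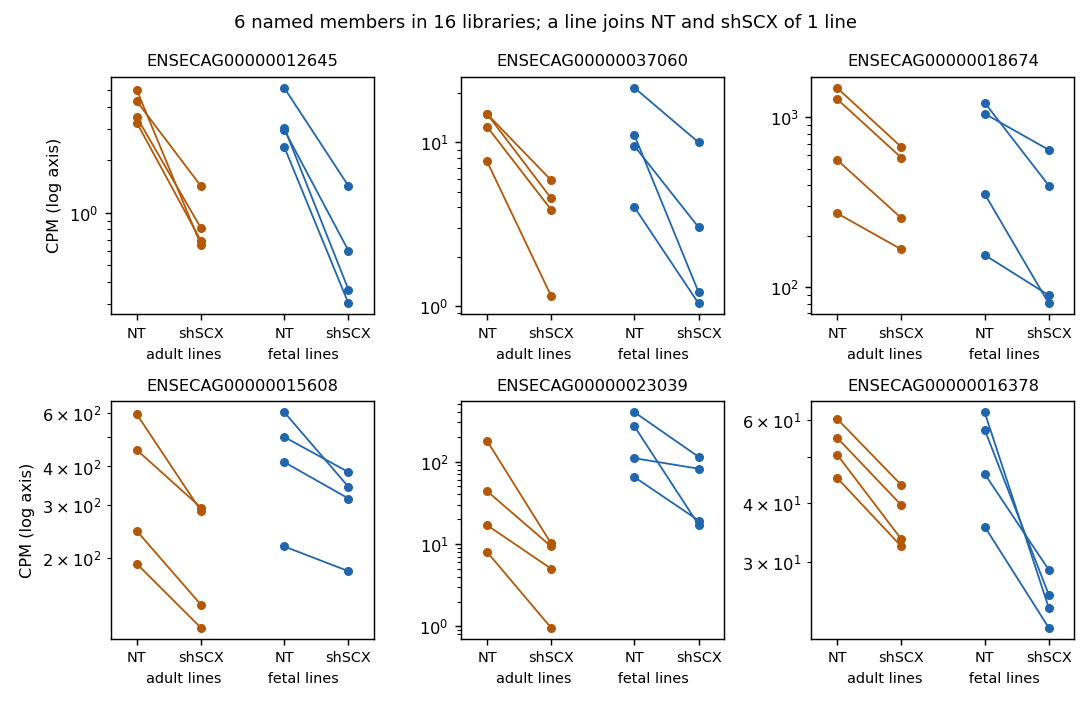
Level in CPM (log axis) of 6 named members in the 16 libraries, adult lines in brown and fetal lines in blue, with a line joining the NT and shSCX library of each tenocyte line. All joins run downward, as the rule required, while the NT levels of ENSECAG00000018674 spread from 155 to 1492 CPM.

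As a group the members were spread over the range of levels much as other eligible genes were. Their median NT level was 22.1 CPM, against 23.0 CPM over all eligible genes. Of the members 27 were under 10 CPM, 58 between 10 and 100 CPM and 15 at 100 CPM or more. The corresponding shares of eligible genes were 27.0%, 60.6% and 12.5%. Members under 10 CPM had a median of their mean ratios of -0.91, those between 10 and 100 CPM -0.63, and those of 100 CPM or more -0.63. The rule takes the extreme over 8 lines, and over eligible genes the ratio varied more between lines at low level, with a median SD of 0.33 under 10 CPM and 0.19 at 100 CPM or more.

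The summed level of the members went from 4670, 6029, 6238 and 6280 CPM with NT to 3043, 3758, 3650 and 3957 CPM with shSCX in the adult lines, in the order above. In the fetal lines it went from 5533, 6990, 4906 and 7244 CPM to 2966, 4004, 3219 and 4413 CPM. The shSCX libraries therefore kept 53.6% (271d) to 65.6% (319d) of the summed NT level. ENSECAG00000018674 alone made up 13.3% of the summed NT level, and without it the share kept was 55.7% to 68.7%. In all, the members took 0.599% ± 0.091 of all counts in NT libraries and 0.363% ± 0.051 in shSCX libraries (SD, n = 8 lines each). Less messenger per cell and fewer cells that express a gene cannot be told apart in these bulk cultures.

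**Figure D3:**
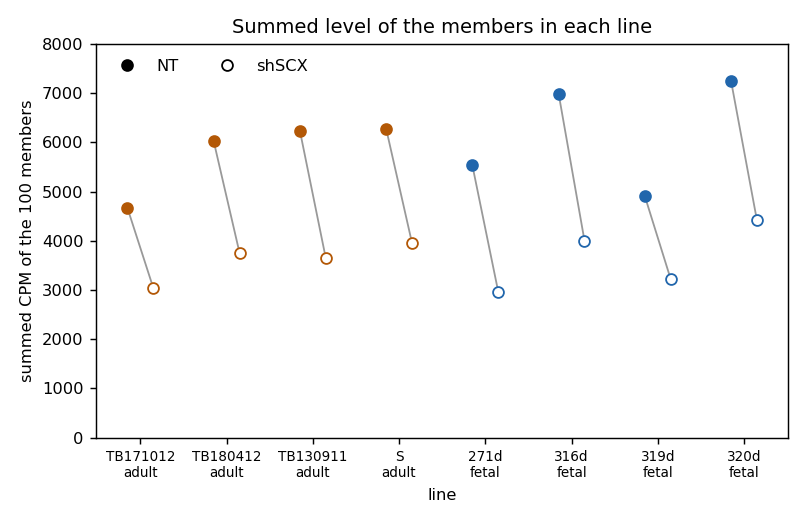
Summed CPM of the 100 members in each line, with NT as filled and shSCX as open circles, adult lines in brown and fetal lines in blue. The sum with NT runs from 4670 CPM in TB171012 to 7244 CPM in 320d, and each shSCX library lies below its own NT library.

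The NT level of members varied between lines. The highest NT library exceeded the lowest by a median of 2.60-fold in members and 1.97-fold over all eligible genes, and 27 members differed more than 5-fold, against 9.12% of eligible genes. The coefficient of variation over the 8 NT libraries had a median of 30.4% in members and 23.3% over eligible genes, and over the shSCX libraries 37.1% and 24.8%. Line 320d had the highest NT level for 28 members, against 9.49% of eligible genes. TB180412 had it for 5 members, against 31.4% of eligible genes. A high NT value lowers the ratio of its line by construction, so these counts are no independent property of the members.

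For 92 members all 16 values were whole numbers within 0.01. The other 8 had a fractional value in at least 1 library, a share near the 7.59% of eligible genes, and 6 of them did so in over 8 libraries. Salmon gives fractional values where reads are shared between similar transcripts, so the levels of those 8 are less certain. None of the genes named by identifier is among them.

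Among the 100 eligible genes with the lowest ratio in a line, 31 were members in 271d, 30 in 319d, 27 in S, 25 in 320d and 24 in 316d. There were 20 in TB171012, 20 in TB130911 and 4 in TB180412. Of 36 eligible genes with a mean ratio of -1 or lower, 26 were members. The other 10 missed the limit in 1 line or more, and for 8 of them the highest ratio was in TB180412. In 7 of the 10 it was above 0.

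TB180412 was the line that most often kept a gene out. At the members' limit of -0.2082, 205 eligible genes were at or below it in exactly 7 of 8 lines. The exception was TB180412 for 91 of them, TB171012 for 28, 319d for 21, TB130911 for 20, S for 16, 316d for 13, 271d for 12 and 320d for 4. In TB180412 53 of its 91 had a ratio above 0. With TMM scaling, which corrects for differences in library composition, TB180412 was the exception for 112 of 211 such genes, and with DESeq2 size factors for 92 of 189. In TB180412 2.51% of eligible genes were at least 2-fold lower, the highest share of the 8 lines (0.414% to 2.03% in the others). Its libraries held 23336159 and 21175885 counts, within the range of the others. Its passage was the lowest. The part of passage, depth or strength of the hairpin effect in this pattern was not tested.

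To read the same measure in a line that had no say, the rule was run on 7 lines and the 100 genes it chose were read in the line left out. With TB171012 left out, 97 of the 100 were below 0 in it, against 45.2% of its eligible genes. The counts were 95 in TB130911 (51.0% of eligible genes) and 98 in S (54.4%). For the fetal lines they were 98 of 100 for 271d (37.2%), 94 for 316d (38.5%), 95 for 319d (37.3%) and 100 for 320d (43.9%). In these 7 lines the median ratio of the chosen genes was between -0.76 (271d) and -0.54 (319d), near the values of the members themselves. Of the 100 genes chosen, 82 (without TB171012) to 96 (without 320d) were members, so this closeness is partly built in. In TB180412 71 of 100 were below 0, against 58.7% of its eligible genes, with a median of -0.29 against -0.08. The 29 others had a median mean ratio of -0.95 in the other 7 lines, and the 71 had -0.84. The genes at or above 0 in TB180412 thus had ratios elsewhere at least as low as the rest, a contrast that was not tested. Since the rule was proposed with results of all 8 lines known, these counts are given without a test.

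**Figure D4:**
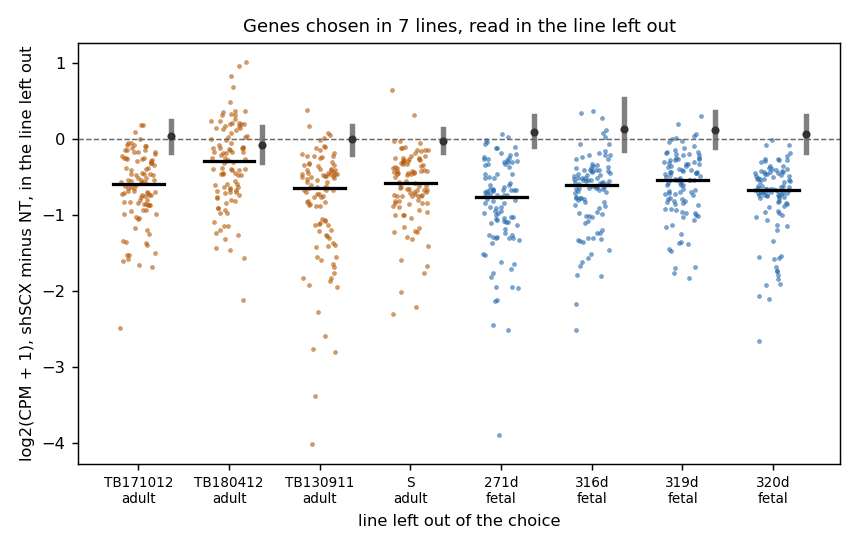
Ratios, on the log2(CPM + 1) scale, of the 100 genes chosen in 7 lines, read in the line left out (points, with a black bar at the median), and the middle 50% of all eligible genes in that line (grey bar, with a dot at the median). Medians lie between -0.76 and -0.54 except in TB180412, where the median is -0.29 and 29 genes are at or above 0.

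The same reading was made across stages. When the 4 adult lines alone chose 100 genes, 71 of them were below 0 in all 4 fetal lines, against 13.9% of eligible genes, and 3 were above 0 in all 4. Their mean ratio had a median of -0.73 in the adult lines that chose them and -0.60 in the fetal lines. When the 4 fetal lines chose, 66 of 100 were below 0 in all 4 adult lines, against 13.7% of eligible genes, and 0 were above 0 in all 4. The median was -0.92 in the choosing fetal lines and -0.64 in the adult lines. Of these choices, 55 adult and 49 fetal genes were members.

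The stage of the lines did not enter the rule, so members were compared between fetal and adult lines in tests fitted over all genes. With NT, 0 of 100 members were called by edgeR (adjusted p under 0.05), where 1 of 12384 genes was (0.00807%). At an unadjusted p under 0.05 there were 17 members, against 2.81% of all genes, and 16 of the 17 were higher in fetal lines. DESeq2 called 0 members (0.178% of all genes) and limma voom called 0 (0.00807%). The fitted log2 difference, fetal minus adult, was above 0 for 71 members, with a median of 0.18, against 50.5% and 0.00 over all genes. With a line left out the number above 0 ran from 60 (without 320d, 44.5% of all genes) to 79 (without 271d, 51.4%). The number at an unadjusted p under 0.05 ran from 6 (without 320d, 2.01% of all genes) to 22 (without TB130911, 3.02%). Without TB180412 it was 8 (1.96%). The median difference was 0.08 without 320d and 0.11 without TB180412. These NT libraries also entered the ratios that chose the members, and their mean level set which genes were eligible. The comparison is therefore not fully independent of the rule. ENSECAG00000009723, among the 16, had a mean of 1.29 CPM in adult and 6.32 CPM in fetal NT libraries. It passed the minimum of 2 CPM only through its fetal lines.

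Levels in NT libraries were above those of all adult NT libraries in all fetal ones for 4 members, against 0.515% of eligible genes, and below for 1 member, against 0.708%. ENSECAG00000012497 had 29.5, 22.2, 21.8 and 26.8 CPM in adult NT libraries and 33.8, 33.7, 67.2 and 38.9 CPM in fetal ones. Its fitted log2 difference was 0.84 (SE 0.26, edgeR adjusted p = 0.998), which did not pass. Without 319d, the highest of its NT libraries, the difference was 0.54. ENSECAG00000036976 had 2.65, 3.99, 3.88 and 3.78 CPM in adult and 6.82, 6.10, 5.24 and 6.17 CPM in fetal NT libraries, a log2 difference of 0.84 (SE 0.23, edgeR adjusted p = 0.998). ENSECAG00000009420 was the single member higher in all adult NT libraries, at 221, 317, 203 and 207 CPM against 159.96, 194, 168 and 124 CPM. Its log2 difference was -0.48 (SE 0.18, edgeR adjusted p = 0.998).

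With shSCX the members were divided between both directions. Of 99 members that passed the filter on low counts, 48 were higher in fetal lines, with a median log2 difference of -0.06, against 49.5% and 0.00 over all genes. With a line left out 38 (without 320d, 46.9% of all genes) to 57 (without 271d, 47.4%) were higher in fetal lines. The median then ran from -0.16 (without 320d) to 0.08 (without S) and was also above 0 without TB171012, 271d or 319d, so its sign depended on single lines. These libraries, too, entered the ratios that chose the members. The member left out by the filter was ENSECAG00000009723, whose counts ran from 2 to 215. By edgeR 0 of 99 were called, where 1 of 12482 genes was (0.00801%), and 14 were at an unadjusted p under 0.05 (4.43% of all genes), 11 higher in fetal and 3 higher in adult lines. Limma voom called 0 (0.00801%). DESeq2 called 3 (0.458% of all genes), all higher in fetal shSCX libraries. Groups did not overlap for 8 members higher in fetal libraries (1.23% of eligible genes) and 1 higher in adult libraries (0.855%).

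The 3 members called by DESeq2 were ENSECAG00000023039, ENSECAG00000020808 and ENSECAG00000024045, the last of which was named after its values were seen. For ENSECAG00000023039, whose levels are given above, shSCX libraries held 0.96 to 10.2 CPM in adult and 17.1 to 114 CPM in fetal lines. The log2 difference was 3.24 (SE 0.82, edgeR adjusted p = 0.732), and the adjusted p over the alternatives ran from 0.00202 with DESeq2 to 0.999991. ENSECAG00000020808 had 5.39, 9.02, 9.26 and 1.96 CPM in adult and 16.9, 21.5, 20.2 and 54.3 CPM in fetal shSCX libraries. Its difference was 2.18 (SE 0.53, edgeR adjusted p = 0.732, and 0.00886 with DESeq2, in a range up to 0.999991). In NT libraries it had 15.9, 18.7, 33.8 and 3.97 CPM in adult and 54.0, 40.4, 33.6 and 77.7 CPM in fetal lines, which overlapped. ENSECAG00000024045 had a difference of 2.05 (SE 0.50, edgeR adjusted p = 0.732, and 0.0166 with DESeq2, in a range up to 0.999991), from 1.57 to 2.88 CPM in adult and 3.32 to 13.8 CPM in fetal shSCX libraries.

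**Figure D5:**
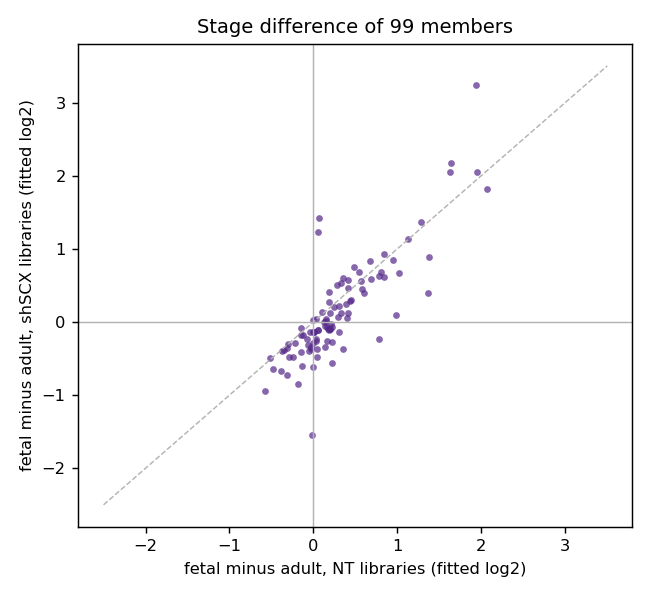
Fitted log2 difference between fetal and adult lines in NT libraries (x axis) and in shSCX libraries (y axis) for 99 members, with a dashed line where both are equal. Of the points 70 lie right of 0 and 48 above 0, and 76 lie below the dashed line; both axes come from the same lines.

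The difference of the hairpin effect between the 2 stages was fitted over all genes as the interaction of stage and hairpin, with the line as a block. It compares the same hairpin contrast that chose the members, fitted in edgeR to counts with TMM scaling instead of the ratios of the rule. For members its values are therefore a description and no test. By edgeR 0 of 100 members were called, as were 0 of 12888 genes (0%). Limma voom called 0 members (0%) and DESeq2 0 (0.295% of all genes). At an unadjusted p under 0.05, again only as a description, there were 14 members, against 15.6% of all genes, and all 14 had the lower effect in fetal lines. This number was 7 without S (10.8% of all genes) and 20 without 271d (22.0%), the extremes over the lines left out in turn. Of those 20, 4 had the higher effect in fetal lines. There were 8 without TB180412 (2 of them higher), against 9.58% of all genes, and 9 without 316d (8.63%). Without the line as a block there were 0 (0.303%). The fitted difference, fetal minus adult, was below 0 for 73 of 100 members, with a median of -0.15 against 0.00 over all genes. With a line left out that number ran from 66 to 76. In the ratios of the rule the members' difference was smaller, while the difference over eligible genes was above 0. There the fetal mean was below the adult mean for 59 of 100 members, against 36.2% of eligible genes. The median difference of these ratios was -0.04 in members and 0.10 over eligible genes. The rule set one limit for all lines while the eligible median was higher in fetal lines, so a fetal ratio at the limit lay further below its own median. The part of this in the difference between stages was not tested. When the members were chosen with TMM scaling instead, the fitted difference was below 0 for 68 of 100, with a median of -0.10. Of these members 13 were at an unadjusted p under 0.05, and 2 of the 13 had the higher effect in fetal lines.

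Ratios of fetal lines were below those of all adult lines for 4 members (1.16% of eligible genes) and above them for 0 (10.1%). With TMM scaling these counts were 10 (3.81%) and 0 (5.07%). ENSECAG00000016378 had ratios of -0.58, -0.46, -0.47 and -0.46 in the adult lines and -0.69, -1.34, -1.13 and -0.66 in the fetal lines. Its NT levels were alike, at 52.7 ± 6.40 CPM in adult and 50.3 ± 11.8 CPM in fetal lines, against 37.3 ± 5.29 and 25.1 ± 2.99 CPM with shSCX (SD, n = 4 lines each). The difference in effect was -0.59 (SE 0.17). In shSCX libraries alone it was the single member lower in all fetal than in all adult lines (log2 difference -0.62, SE 0.20, edgeR adjusted p = 0.877). ENSECAG00000020117 had ratios of -0.35, -0.50, -0.50 and -0.29 in adult and -1.02, -1.24, -0.51 and -0.77 in fetal lines, a difference of -0.72 (SE 0.24).

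The same rule turned round, taking the 100 eligible genes with the highest minimum ratio, gave a set in the other direction. Its genes had minimum ratios from 0.48 to 1.72, where the members' maximum ratios ran from -1.14 to -0.21. The median of the mean ratios was 1.09, against -0.66 for the members, and 63 of its genes had a mean ratio of 1 or more, where 26 members were at -1 or lower. Also, 883 eligible genes (8.12%) were above 0 in all 8 lines, against 597 below 0. Its median NT level was 20.4 CPM and its coefficient of variation over NT libraries 25.5%, below the members' 30.4%. Both sets were chosen by these ratios, so the contrast is given without a test.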

How the data were processed

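Per the labels' protocols, messenger RNA libraries were made from total RNA with a stranded kit. The authors deposited estimated counts per gene, adult and fetal libraries in separate tables of the same 21689 identifiers, not scaled. The submitters' processing notes name FastQC, Salmon and R 3.5.2. Which build, transcript set and gene-level step were used is not given in the sources used here. Between 94.6% and 95.8% of a library's values were whole within 0.01.

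Both tables were joined by identifier. Columns with the prefix TB and no number were assigned to TB171012, since the other adult titles were taken. Ratios used Python 3.11.15. Counts were rounded and tested with edgeR 4.0.16 under R 4.3.3 (quasi-likelihood, TMM, filterByExpr, Benjamini-Hochberg over all genes tested, threshold 0.05), after checks on simulated data. DESeq2 1.42.0 and limma 3.58.1 voom were alternatives. Standard errors are the log2 difference divided by the square root of F. Both libraries of a line were paired by name, and their deviations from group means correlated with r of 0.30 to 0.90. By this measure the closest NT library to an shSCX library bore the same line name in 7 of 8 cases. In the remaining case the NT library of another line was closer.

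The members and lists were chosen with earlier results of these data known. Identifiers were named by rule: the first 2 members, the 2 most abundant, and per test up to 2 in each direction with the largest fold among members whose groups did not overlap. The gene lists, markers, promoters and proteins could not be used without symbols.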

Additional observations from a re-analysis of the deposited data

Results flagged for a closer look

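Libraries standing apart were sought with Dixon's ratio in 72 groups of 4 values of the members and their sums, where chance gives about 1 group in 20, and 4 were found. All 4 were in TB171012. Its summed NT level of the members was 4670 CPM, below the 6029 to 6280 CPM of the other adult lines. ENSECAG00000036976 was lowest there among adult NT libraries, at 1.87 on the log2(CPM + 1) scale against 2.26 to 2.32. The ratio of ENSECAG00000018674 was highest there among adult lines, at -0.70 against -1.15 to -1.14. The ratio of ENSECAG00000016378 was lowest there, at -0.58 against -0.47 to -0.46.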

How the results depend on the processing

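Of the 100 members, 80 were also chosen with TMM scaling, 84 with DESeq2 size factors, 97 with a pseudocount of 0.5 CPM, 81 with 5 CPM, 73 with a minimum of 10 CPM, 97 with no minimum and 99 with the most abundant genes kept, and 53 under all 7 of these. With 1 line left out 55 (without TB180412) to 96 (without 320d) were chosen again, 53 whichever line was left out. Adult lines alone chose 55 of them and fetal lines alone 49. The mean of the members' median ratios was -0.63 in adult and -0.67 in fetal lines. With a pseudocount of 0.5 CPM it was -0.68 in adult and -0.70 in fetal lines, and with 5 CPM -0.45 and -0.52. In fetal lines it was -0.77 with TMM scaling and -0.78 with DESeq2 size factors, and in adult lines -0.64 with either. TMM scaling moved the eligible median of fetal lines from 0.10 to -0.00 and left that of adult lines at -0.02, and no member was above 0 in any line with it. Left-out lines moved the adult mean from -0.65 to -0.62 and the fetal from -0.71 to -0.63.

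No member was called between stages with NT, or for a difference in effect, under any of 11 and 12 alternatives. With shSCX DESeq2 called 3, and the other alternatives 0. The interaction without the line as a replicate block called 0 members, as the blocked fit did. For members the calls on the difference in effect are a description and no test, since the rule used the same contrast. In the comparison for which each was named, named members kept their direction under 90 of 90 alternatives. They were named because their groups did not overlap, so a kept direction was largely fixed by the naming and is no support. Under 2 of the alternatives, both DESeq2, ENSECAG00000023039 (3.24) and ENSECAG00000020808 (2.18) passed the threshold. TB180412 remained the most frequent exception with TMM scaling, DESeq2 size factors and a pseudocount of 5 CPM, checks added after seeing the data, as was the choice of members with TMM scaling or DESeq2 size factors for the tests between stages. Genes chosen without TB180412 were below 0 in it in 71 to 75 of 100 cases. The cause was not tested. Counting error limits members of low level.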
